A study of Mus musculus with 19 samples.

Results

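Skeletal muscle genes were followed in bulk RNA-seq of mouse liver, as 35 named genes out of 55836 in the count table. The genes were chosen because their levels had been seen to stand high in 5 of the 19 libraries, namely CD + Veh 2, CD + PE 1 and MD + Veh 1, 2 and 3. Their levels in those libraries are therefore a description and carry no test. All 35 were found by symbol in the table and in the GENCODE vM39 annotation of GRCm39.

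The 19 libraries each came from the liver of 1 male wild-type C57BL/6 mouse, 8 weeks old at the start. The groups were CD + Veh (n = 4, control diet and vehicle), CD + PE (n = 5, control diet and polyethylene microplastics), MD + Veh (n = 5, a MASH-inducing diet rich in fat, fructose and cholesterol, and vehicle) and MD + PE (n = 5, both). PE was given by gavage at 2 mg per mouse and day over 8 weeks, vehicle mice were gavaged with the Tween 20 carrier alone, and RNA came from pieces of frozen liver without sorting of cells. Libraries held 10398820 to 15456729 counts. Levels are given as CPM, counts scaled to a common library size with edgeR's TMM factors.

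Skeletal muscle fibres contract by sliding thick filaments of myosin along thin filaments of actin, troponin and tropomyosin, within sarcomeres that titin spans from the Z disc to the M band. Fast fibres and slow fibres use different genes for myosin and for each troponin subunit, so that a set of these transcripts tells which fibres an RNA sample holds. Hepatocytes do not form sarcomeres, and most of these genes are near absent from healthy liver parenchyma.

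The 35 genes together reached 7020 CPM in MD + Veh 1, 858 CPM in CD + PE 1, 473.6 CPM in MD + Veh 2, 283.5 CPM in MD + Veh 3 and 114 CPM in CD + Veh 2. They took 0.749% of all counts of MD + Veh 1 (exact 95% Clopper-Pearson interval 0.744 to 0.753%, for counting error only), from 110762 counts. The share was 0.0817% for CD + PE 1, 0.0496% for MD + Veh 2, 0.0281% for MD + Veh 3 and 0.0114% for CD + Veh 2. The 14 other libraries lay between 19.7 and 70.7 CPM. The lowest of the 5 libraries, CD + Veh 2 at 114 CPM, thus stood next to MD + Veh 4 at 70.7 CPM, which was the highest of the others. By group, CD + Veh had a median sum of 25.7 CPM (lowest 19.7, highest 114) and CD + PE a median of 41.4 CPM (29.3 to 858). MD + Veh had a median of 283.5 CPM (34.1 to 7020) and MD + PE of 52.98 CPM (40.2 to 58.6). None of the 5 libraries came from MD + PE, and the ranges of all 4 groups overlapped.

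**Figure D1:**
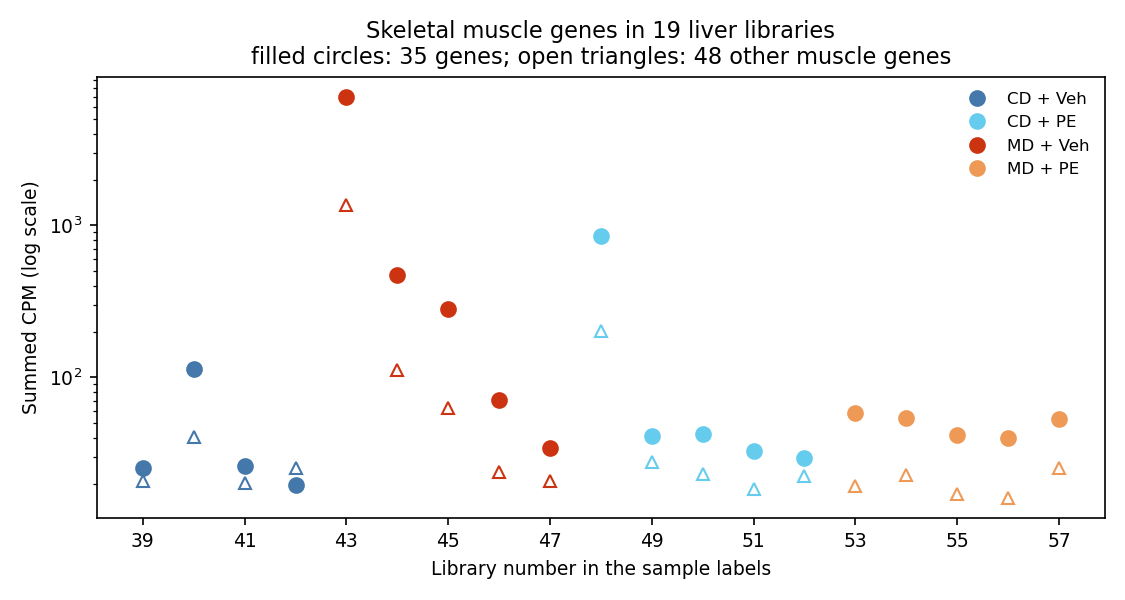
Summed CPM (y axis, log scale) of the 35 skeletal muscle genes (filled circles) and of 48 other skeletal muscle genes (open triangles) in each library, by the library number in the sample labels (x axis) and coloured by group, 1 point per mouse. MD + Veh 1, library 43, stands at 7020 CPM, CD + PE 1, library 48, at 858 CPM, and 14 libraries lie between 19.7 and 70.7 CPM.

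In bulk RNA, more cells of a type and more RNA per cell cannot be told apart, so these levels say nothing of the amount of muscle. Hepatocyte genes (Alb, Apoa1, Ttr, Fgb, Cps1 and Serpinc1, which code for plasma proteins and the first enzyme of the urea cycle) summed to between 46030 and 91010 CPM in the 19 libraries, and every library was liver by these markers. MD + Veh 1 stood at 47490 CPM, MD + PE 4 at 46030 CPM. The MD + Veh replicates 1 to 5 carry the library numbers 43 to 47, and a division between library numbers 45 and 46 separates replicates 1 to 3 from replicates 4 and 5. The ribosomal pseudogene Rps6-ps4 was at 70.1 to 105 CPM in libraries 39 to 45 and at 0 in libraries 46 to 57. CD + Veh 2, library 40, lay on the first side with them and CD + PE 1, library 48, on the other. PE libraries are numbered 48 to 57, and MD + Veh 4 and 5 are the vehicle libraries on the same side of the division as PE.

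Promoters of 4 genes are shown because their transcripts carry the account: Acta1 and Ckm stood high in all 5 libraries, whereas Myh2 and Myh8 are 2 of the myosin genes that divided CD + PE 1 from the rest of them, as Myh7 also did. Each is the 250 bases upstream of the start of the Ensembl canonical transcript on GRCm39, printed 5′ to 3′ on the strand of the gene. Capitals mark letters that match CAGCTG (an E-box of the kind bound by myogenic factors), the CArG box of serum response factor, the MEF2 site or TATAAA, searched on both strands.
Acta1 (chr8:124621687-124621936, minus strand): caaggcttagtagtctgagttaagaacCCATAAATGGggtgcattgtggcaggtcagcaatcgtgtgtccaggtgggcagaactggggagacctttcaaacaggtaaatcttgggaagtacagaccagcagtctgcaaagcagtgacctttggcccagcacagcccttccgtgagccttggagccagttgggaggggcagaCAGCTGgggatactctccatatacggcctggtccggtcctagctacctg
Ckm (chr7:19144583-19144832, plus strand): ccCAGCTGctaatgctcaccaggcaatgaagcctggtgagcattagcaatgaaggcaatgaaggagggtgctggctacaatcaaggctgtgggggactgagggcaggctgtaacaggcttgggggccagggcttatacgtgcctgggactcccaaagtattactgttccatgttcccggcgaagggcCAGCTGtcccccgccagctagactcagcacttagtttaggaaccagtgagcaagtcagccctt
Myh2 (chr11:67061666-67061915, plus strand): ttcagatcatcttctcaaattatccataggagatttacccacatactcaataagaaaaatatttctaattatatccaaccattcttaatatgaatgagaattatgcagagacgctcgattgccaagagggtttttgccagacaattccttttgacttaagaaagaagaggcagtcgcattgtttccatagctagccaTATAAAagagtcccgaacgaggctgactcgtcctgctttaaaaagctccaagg
Myh8 (chr11:67167700-67167949, plus strand): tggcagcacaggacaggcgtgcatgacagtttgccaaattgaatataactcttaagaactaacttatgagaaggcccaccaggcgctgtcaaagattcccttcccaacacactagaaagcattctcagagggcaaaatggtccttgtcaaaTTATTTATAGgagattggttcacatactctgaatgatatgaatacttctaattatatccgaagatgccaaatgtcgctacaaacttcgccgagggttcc
Acta1 held 1 CArG match and 1 CAGCTG, Ckm held 2 CAGCTG, Myh2 held 1 TATAAA, and in Myh8 a MEF2 match overlapped a TATAAA on the other strand. CAGCTG was in the promoters of 9 of the 35 genes (25.7%), of 14 of 48 other skeletal muscle genes (29.2%) and of 11.9% of 21738 promoters of protein-coding genes. The MEF2 match was in 5 of 35 (14.3%), in 9 of 48 (18.8%) and in 2.8% of all promoters. The CArG box was in 2 of 35 (5.71%) against 1.4% of all, and TATAAA in 5 of 35 (14.3%) against 11.9% of all. A match describes letters and is not a bound site.

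Thick filament genes summed to 2158 CPM in MD + Veh 1, 140.9 CPM in MD + Veh 2, 139.4 CPM in CD + PE 1, 50.5 CPM in MD + Veh 3 and 28.0 CPM in CD + Veh 2, against 0.674 to 7.89 CPM in the 14 other libraries. Myh1, the myosin heavy chain of fast type IIx fibres (chr11:67089132-67116631, plus strand), stood at 691.6 CPM in MD + Veh 1, 72.3 in CD + PE 1, 44.4 in MD + Veh 2, 15.6 in MD + Veh 3 and 9.60 in CD + Veh 2. In the 14 others it was between 0 and 2.94 CPM, so the 5 libraries did not overlap the rest. Myh4, the heavy chain of the fastest type IIb fibres (chr11:67128336-67151274), was at 328.7 CPM in MD + Veh 1, 20.9 in MD + Veh 2, 16.4 in CD + PE 1 and 4.15 in CD + Veh 2. The lowest of the 5 was MD + Veh 3 with 2.73 CPM, and the highest of the others had 0.702 CPM.

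Myh2, the heavy chain of fast oxidative type IIa fibres (chr11:67061838-67088989), was at 539.4 CPM in MD + Veh 1, 35.1 in MD + Veh 2, 8.32 in MD + Veh 3 and 5.73 in CD + Veh 2. In CD + PE 1 it was at 0.166 CPM, 2 counts, below the 1.55 CPM of MD + Veh 4. Myh7, the heavy chain of slow type I fibres (chr14:55208141-55232084, minus strand), followed the same order with 149.8, 9.35, 2.25 and 1.15 CPM in those 4 libraries. CD + PE 1 held 0 counts of Myh7, as did 13 of the 14 other libraries, MD + Veh 4 being the exception at 0.464 CPM. Both genes thus stood high in 4 of the 5 libraries and were not raised in CD + PE 1. Of the 31-base words of the Myh1, Myh2, Myh4, Myh7 and Myh8 transcripts, 28.9 to 33.9% also occur in another gene, mostly a neighbouring myosin, so the split of reads between myosins carries an error that the counts do not show.

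The light chains of the thick filament held both patterns. Mylpf, the fast regulatory light chain, was at 121.1 CPM in MD + Veh 1, 24.8 in CD + PE 1, 9.21 in MD + Veh 3, 8.05 in MD + Veh 2 and 2.29 in CD + Veh 2, and at 0.253 to 1.32 CPM elsewhere. Myl1, the fast essential light chain, was at 111.9 CPM in MD + Veh 1 and 8.05 in CD + PE 1. Myl2, the light chain of slow fibres and heart ventricle, was at 23.8 CPM in MD + Veh 1, 2.73 in MD + Veh 3, 1.92 in MD + Veh 2 and 0.645 in CD + Veh 2, and CD + PE 1 held 0 counts. Of the myosin-binding proteins, the slow form Mybpc1 was at 138.1 CPM in MD + Veh 1 and 9.88 in CD + PE 1, and the fast form Mybpc2 at 53.8 and 7.80 CPM.

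**Figure D2:**
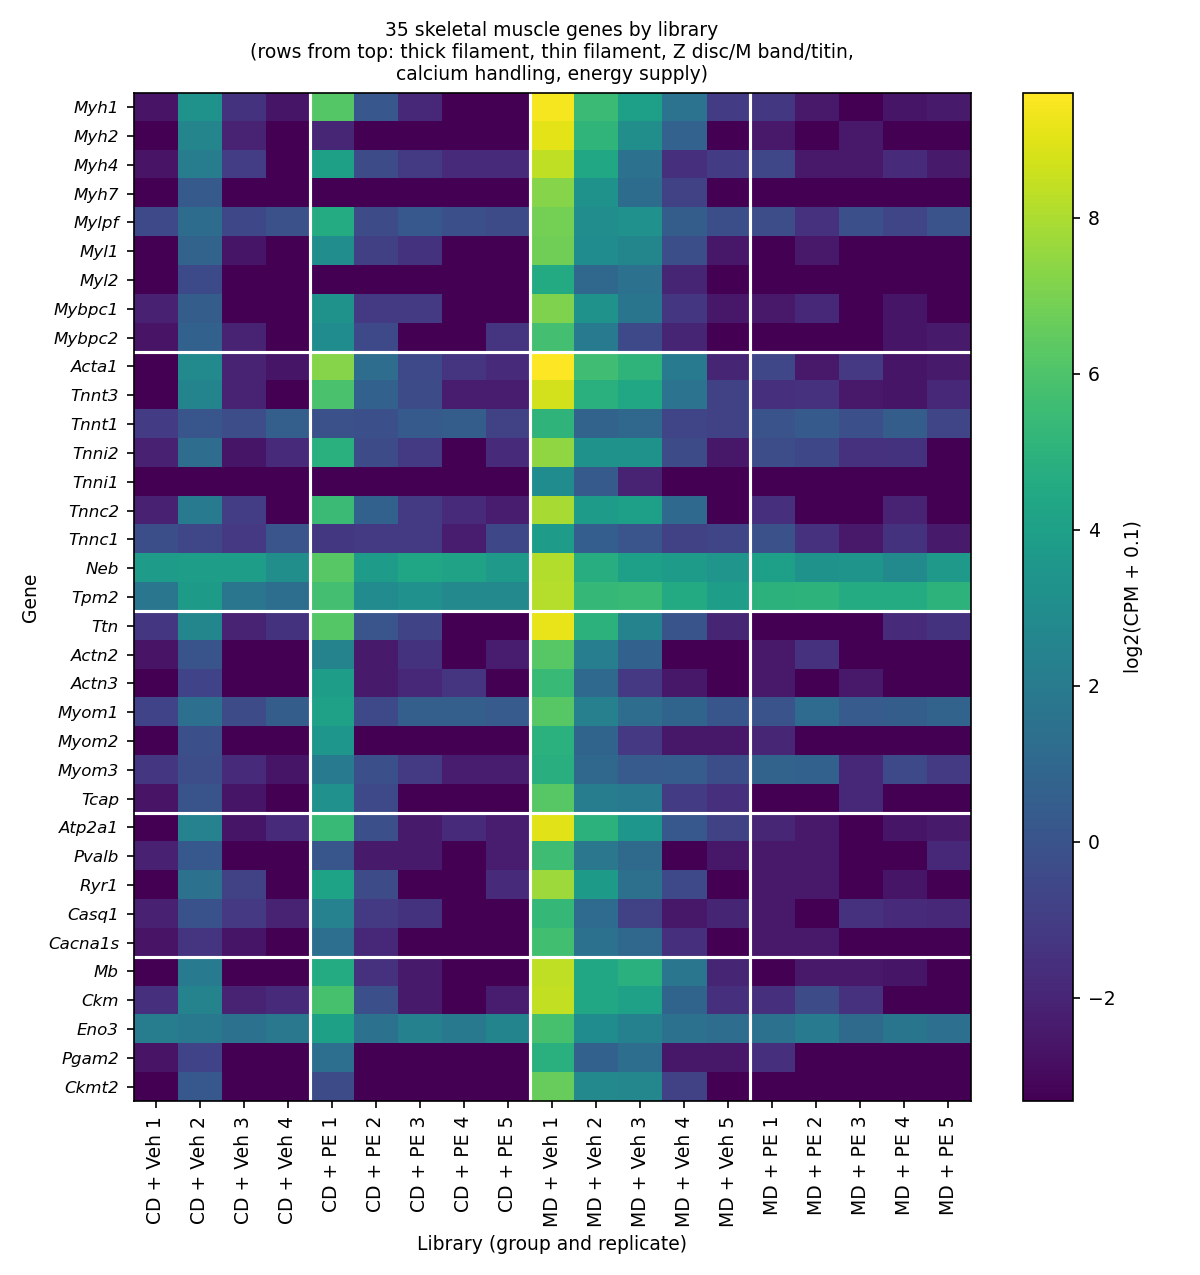
Level of each of the 35 genes (rows, by role) in each of the 19 libraries (columns, by group and replicate), as log2(CPM + 0.1) on the colour scale. All 35 are highest in MD + Veh 1, and Myh2, Myh7, Myl2 and Tnni1 are at or near the bottom of the scale in CD + PE 1.

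Thin filament genes summed to 2230 CPM in MD + Veh 1, 417.3 in CD + PE 1, 172.5 in MD + Veh 2, 140.5 in MD + Veh 3 and 48.7 in CD + Veh 2, against 13.2 to 50.3 CPM in the 14 others. CD + Veh 2 lay inside that last range, which came from Neb and Tpm2. Acta1, the skeletal actin (chr8:124618501-124623661, minus strand), was at 775.1 CPM in MD + Veh 1, 154.7 in CD + PE 1, 48.9 in MD + Veh 2, 33.3 in MD + Veh 3 and 6.95 in CD + Veh 2. It was at 3.95 CPM in MD + Veh 4, 2.37 in CD + PE 2 and at most 0.618 in the rest.

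The fast troponins stood high in all 5 libraries. Tnnt3, the fast subunit that binds tropomyosin, was at 424.4 CPM in MD + Veh 1, 58.9 in CD + PE 1, 29.6 in MD + Veh 2, 21.1 in MD + Veh 3 and 5.59 in CD + Veh 2, and at most 2.94 CPM elsewhere. Tnnc2, the fast calcium-binding subunit, was at 237.5, 45.2, 14.3, 15.8 and 3.94 CPM in the same order of libraries, and Tnni2, the fast inhibitory subunit, at 176.8, 29.3, 9.42, 9.96 and 2.36 CPM. Neither overlapped the 14 others, where Tnnc2 reached 2.01 and Tnni2 0.731 CPM.

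The slow troponins did not follow in CD + PE 1 or in CD + Veh 2. Tnni1, the slow inhibitory subunit, was at 7.67 CPM in MD + Veh 1, 1.18 in MD + Veh 2 and 0.136 in MD + Veh 3, and 0 counts were found in the 16 remaining libraries. Tnnt1 and Tnnc1, which slow fibres use for the other subunits, had a low level in every liver, from 0.373 to 1.41 and from 0.0869 to 0.943 CPM in the 14 other libraries. In MD + Veh 1 they stood at 33.9 and 13.9 CPM. In CD + PE 1 they were at 0.830 and 0.332 CPM and in CD + Veh 2 at 1.003 and 0.573 CPM, within the range of the 14 others.

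Neb and Tpm2 were seen in all 19 livers. Neb, the nebulin gene, which spans the thin filament, was at 277.8 CPM in MD + Veh 1, 75.6 in CD + PE 1 and 26.7 in MD + Veh 2. It was at 15.5 CPM in MD + Veh 3 and 15.04 in CD + Veh 2, within the 7.07 to 19.3 CPM of the 14 others. Tpm2, beta-tropomyosin, which is also expressed outside muscle, was at 283.3 CPM in MD + Veh 1, 52.6 in CD + PE 1, 41.9 in MD + Veh 3, 39.5 in MD + Veh 2 and 13.3 in CD + Veh 2.

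Tpm2 also differed between groups among the 14 other libraries, a comparison singled out after the values were seen. It was at 3.30, 3.22 and 2.43 CPM in CD + Veh 1, 3 and 4, at 7.46, 9.27, 6.73 and 6.72 CPM in CD + PE 2 to 5, at 23.7 and 14.4 CPM in MD + Veh 4 and 5, and at 31.5, 32.7, 24.6, 24.3 and 33.1 CPM in MD + PE 1 to 5. No value of any of these sets overlapped that of another. Fitted without the 5 libraries, Tpm2 was higher in MD + Veh than in CD + Veh by 2.69 ± 0.23 on the log2 scale (SE, edgeR). It was higher in CD + PE than in CD + Veh by 1.35 ± 0.21. The comparison was picked from these same values, so both differences are a description and carry no test. Of these 14 libraries, the 3 of CD + Veh are numbered up to 42 and all others 46 or above, so that both differences cannot be told apart from the division between library numbers 45 and 46. With all 19 libraries, which include the values that chose the gene, the differences were 3.87 ± 0.90 and 1.60 ± 0.86, likewise as a description.

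Genes of the Z disc, the M band and titin summed to 904.9 CPM in MD + Veh 1, 133.2 in CD + PE 1, 50.1 in MD + Veh 2, 14.9 in MD + Veh 3 and 12.5 in CD + Veh 2, and to 1.07 to 4.41 CPM elsewhere. Ttn, titin (chr2:76534136-76812891, minus strand), with a canonical transcript of 107543 bases, was at 575.3 CPM in MD + Veh 1, 72.3 in CD + PE 1 and 31.1 in MD + Veh 2. CD + Veh 2 had 6.02 CPM, the lowest of the 5 was again MD + Veh 3 with 5.46 CPM, and the others reached 0.965 CPM. The fast-fibre alpha-actinin Actn3 was at 42.97 CPM in MD + Veh 1 and 15.03 in CD + PE 1, while Actn2, found in all fibres and in heart, was at 76.5 and 5.40 CPM.

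Of the M band genes, Myom2, linked to fast fibres, was at 30.1 CPM in MD + Veh 1 and 10.8 in CD + PE 1, 35.9% of the former, and was the gene nearest to MD + Veh 1 in that library. Myom3, linked to slower fibres, was at 28.0 and 3.99 CPM, and Tcap, which caps titin at the Z disc, at 75.8 and 9.22 CPM. Myom1, present in all striated muscle, kept a low level in every liver, from 0.498 to 2.19 CPM in the 14 others.

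Calcium handling genes summed to 870.6 CPM in MD + Veh 1, 68.4 in CD + PE 1, 52.96 in MD + Veh 2, 18.1 in MD + Veh 3 and 10.2 in CD + Veh 2, and to 0.201 to 2.11 CPM elsewhere. Atp2a1, the calcium pump of the fast sarcoplasmic reticulum, was at 520.8 CPM in MD + Veh 1, 41.8 in CD + PE 1, 31.3 in MD + Veh 2, 10.9 in MD + Veh 3 and 5.23 in CD + Veh 2. Ryr1, the calcium release channel, was at 212.1 CPM in MD + Veh 1, 17.9 in CD + PE 1, 13.3 in MD + Veh 2, 2.72 in CD + Veh 2 and 2.66 in MD + Veh 3. Neither overlapped the 14 others, with their highest at 1.08 and 0.702 CPM. Cacna1s, the voltage sensor that gates Ryr1, and Pvalb, the calcium buffer parvalbumin of fast fibres, had 51.2 and 47.9 CPM in MD + Veh 1, and Pvalb had 0.996 CPM in CD + PE 1, close to the 1.07 CPM of CD + Veh 2.

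Energy supply genes summed to 856.1 CPM in MD + Veh 1, 99.8 in CD + PE 1, 59.5 in MD + Veh 3, 57.2 in MD + Veh 2 and 14.7 in CD + Veh 2, and to 2.43 to 8.20 CPM elsewhere. Ckm, the cytosolic creatine kinase of muscle, was at 340.5 CPM in MD + Veh 1, 56.3 in CD + PE 1, 20.3 in MD + Veh 2, 16.8 in MD + Veh 3 and 5.44 in CD + Veh 2. Mb, myoglobin, the oxygen store of oxidative fibres, was at 330.3 CPM in MD + Veh 1, 29.1 in MD + Veh 3, 24.4 in CD + PE 1 and 21.1 in MD + Veh 2, with CD + Veh 2 lowest of the 5 at 4.08 CPM. Both stayed clear of the 14 others, among which MD + Veh 4 was highest with 1.70 CPM of Ckm and 3.25 CPM of Mb. Ckmt2, the mitochondrial creatine kinase of oxidative fibres, was at 98.1 CPM in MD + Veh 1, 6.69 in MD + Veh 2 and 6.21 in MD + Veh 3 but at 0.664 CPM, 8 counts, in CD + PE 1. Eno3, the muscle enolase, was detected in every liver at 2.09 to 5.53 CPM in the 14 others and at 57.5 CPM in MD + Veh 1.

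All 35 genes were highest in MD + Veh 1. The next highest library was CD + PE 1 for 24 genes, MD + Veh 2 for 8 and MD + Veh 3 for 3. For 24 genes all 5 libraries lay above each of the 14 others, and the count by library was 35 in MD + Veh 1 and in MD + Veh 2, 31 in MD + Veh 3, 29 in CD + PE 1 and 28 in CD + Veh 2. The genes that failed to separate in CD + PE 1 were Myh2, Myh7, Myl2, Tnnt1, Tnni1 and Tnnc1. At least 1 library was at 0 for 27 genes, and 6 genes (Neb, Tpm2, Eno3, Myom1, Tnnt1 and Mylpf) had a median of 10 or more counts over the 19 libraries. Per kilobase of canonical transcript, Acta1 was the most abundant in MD + Veh 1 (470.3 CPM per kb) and in CD + PE 1 (93.9 CPM per kb), followed by Tnnc2 in both (315.9 and 60.1 CPM per kb).

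The fast genes Myh1, Myh4, Tnnt3, Tnni2 and Tnnc2 summed to 1859 CPM in MD + Veh 1, 222 in CD + PE 1, 118.6 in MD + Veh 2, 65.1 in MD + Veh 3 and 25.6 in CD + Veh 2. The slow genes Myh7, Tnnt1, Tnni1 and Tnnc1 summed to 205.3, 1.16, 13.5, 5.32 and 2.72 CPM in that order. Fast genes exceeded slow genes in all 5 libraries. Of the counts of both sets together, the slow set held 9.95% in MD + Veh 1 (exact 95% interval 9.62 to 10.3%), 10.2% in MD + Veh 2 (8.97 to 11.6%), 9.60% in CD + Veh 2 (6.88 to 12.9%) and 7.56% in MD + Veh 3 (6.02 to 9.34%). In CD + PE 1 it held 0.521% (0.285 to 0.872%), an interval below each of the others. From the troponins alone the share was 6.21% in MD + Veh 1, 7.24% in MD + Veh 2, 6.16% in MD + Veh 3 and 11.7% in CD + Veh 2, and CD + PE 1 was again lowest at 0.864%. The intervals of MD + Veh 1 and MD + Veh 2 overlapped, and so did that of CD + Veh 2. MD + Veh 4, with its low level, held 14.3% (8.83 to 21.4%), and in livers at this level the Tnnt1 and Tnnc1 seen in every library weigh on the share. They weigh on CD + Veh 2 as well. Of its 38 slow counts, 14 were Tnnt1 and 8 Tnnc1, at levels within the 14 others, and 16 were Myh7. Its likeness in share to MD + Veh 1 and 2 rests in part on these liver levels.

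**Figure D3:**
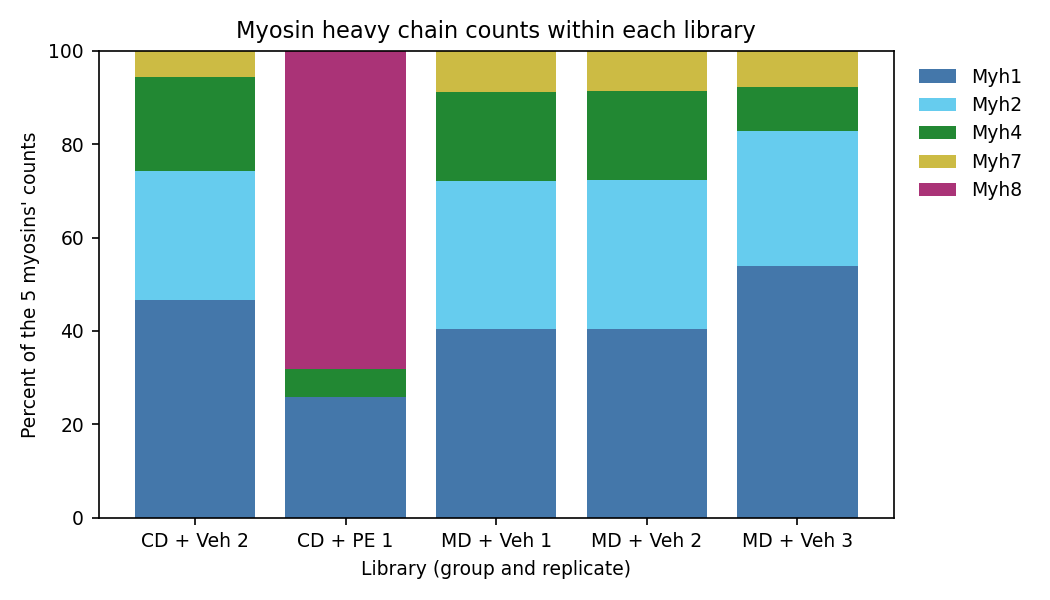
Share of each of 5 myosin heavy chain genes (percent of their summed counts, y axis) in each of the 5 libraries (x axis), stacked to 100. Myh8 fills 68.2% of the bar of CD + PE 1 and is at or near 0 in the other 4 bars, which Myh1 leads with 40.4 to 53.9%.

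Within the myosins, MD + Veh 1 and MD + Veh 2 had almost the same make-up. Of the counts of Myh1, Myh2, Myh4, Myh7 and Myh8 together, Myh1 held 40.5% in MD + Veh 1 and 40.4% in MD + Veh 2, Myh2 31.6 and 32.0%, Myh4 19.2 and 19.1%, and Myh7 8.76 and 8.52%. CD + Veh 2 lay close, with 46.5% Myh1, 27.8% Myh2, 20.1% Myh4 and 5.56% Myh7, from 288 counts. MD + Veh 3 had more Myh1 (53.9%) and less Myh4 (9.46%). CD + PE 1 was made of other myosins: Myh8, the perinatal heavy chain (chr11:67167746-67199462, in the same cluster as Myh2, Myh1 and Myh4), held 68.2% (66.6 to 69.8%) of its 3366 counts, Myh1 25.9%, Myh4 5.85%, Myh2 0.0594% and Myh7 0%, which allows a share of up to 0.110%. Myh8 is not among the 35 genes and was chosen after its values were seen. It stood at 190.6 CPM, 2296 counts, in CD + PE 1 and at 3.60 CPM, 41 counts, in CD + PE 2, and was at most 1 count in any other of the 5 libraries.

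CD + PE 1 differed from the other 4 libraries outside the myosins as well. Actc1, the cardiac actin that developing skeletal muscle also uses, was at 6.89 CPM, 83 counts, against 1.20 CPM in MD + Veh 1, and Myl3, an essential light chain of slow fibres and heart, was at 11.5 CPM against 13.4 CPM in MD + Veh 1. Keratins of stratified squamous epithelium, a tissue of skin and of the upper gut, were read in CD + PE 1, with 291 counts of Krt13, 176 of Krt4, 100 of Krt15 and 93 of Krt5. They were chosen after their values were seen. They summed to 54.8 CPM there and to at most 0.702 CPM in each of the 14 other libraries, which was in CD + PE 2, and to at most 0.254 CPM in the rest of the 5. The part of these keratins in the muscle result was not tested.

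The make-up of 27 of the 35 genes together with Myh8 was compared as the overlap of their shares, which is 100% for 2 libraries with the same shares. The 27 are the genes with a median of at most 5 counts over the 19 libraries. The overlap was 96.9% between MD + Veh 1 and MD + Veh 2, 90.5% between CD + Veh 2 and MD + Veh 2, and 90.3% between CD + Veh 2 and MD + Veh 1. MD + Veh 3 shared 70.9% with MD + Veh 1 and 88.2% with MD + Veh 4. CD + PE 1 shared 64.3 to 67.7% with the other 4 libraries and 81.0% with CD + PE 2. Low counts lower an overlap, so the values of CD + Veh 2, MD + Veh 4 and CD + PE 2 are the least exact. Myh8, chosen after its values were seen, weighs on the overlaps of CD + PE 1.

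Gene by gene, MD + Veh 2 held a near constant share of the level of MD + Veh 1. Over 27 of the genes the median was 6.25% of the level in MD + Veh 1 (quartiles 5.59 and 6.87%), from 4.76% for Actn3 to 15.4% for Tnni1, which rests on 19 counts. These 27 are the genes with a median of at most 5 counts over the 19 libraries, so that a level seen in every liver does not weigh on the share. In 29 other skeletal muscle genes with at least 100 counts in MD + Veh 1, the median was 6.52%. In CD + PE 1 the same genes ran from 0 for Myh7 to 35.9% for Myom2, with a median of 8.42% (quartiles 5.00 and 14.2%), and in CD + Veh 2 the median was 1.26% (quartiles 1.05 and 1.63%). The genes are not independent replicates, since all come from the same pair of libraries.

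MD + Veh 3 held fewer long transcripts of muscle than short ones. Its median was 2.27% of the level in MD + Veh 1 (quartiles 1.38 and 5.17%), and it was 1.54% for the 15 genes with a canonical transcript of at least 3000 bases and 5.50% for the 12 shorter genes. Mb, at 1285 bases, stood at 8.79% and Myl2, at 828 bases, at 11.5%, whereas Ttn stood at 0.948% and Ryr1, at 15358 bases, at 1.25%. Spearman's rho between length and share was -0.70 in MD + Veh 3 and -0.10 in MD + Veh 2, as a description over 27 genes. In 29 other skeletal muscle genes the medians in MD + Veh 3 were 4.38% for long and 5.78% for short transcripts, with rho at -0.46. Over all other genes tested for this, the log2 level relative to the median library was lower by 0.153 in long than in short transcripts in MD + Veh 3 (1497 genes of at least 6000 bases, 1048 under 1500, each with at least 50 counts in every library), the lowest of the 19 libraries, among which MD + PE 3 was highest at 0.205. Its part in the muscle result was not tested.

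**Figure D4:**
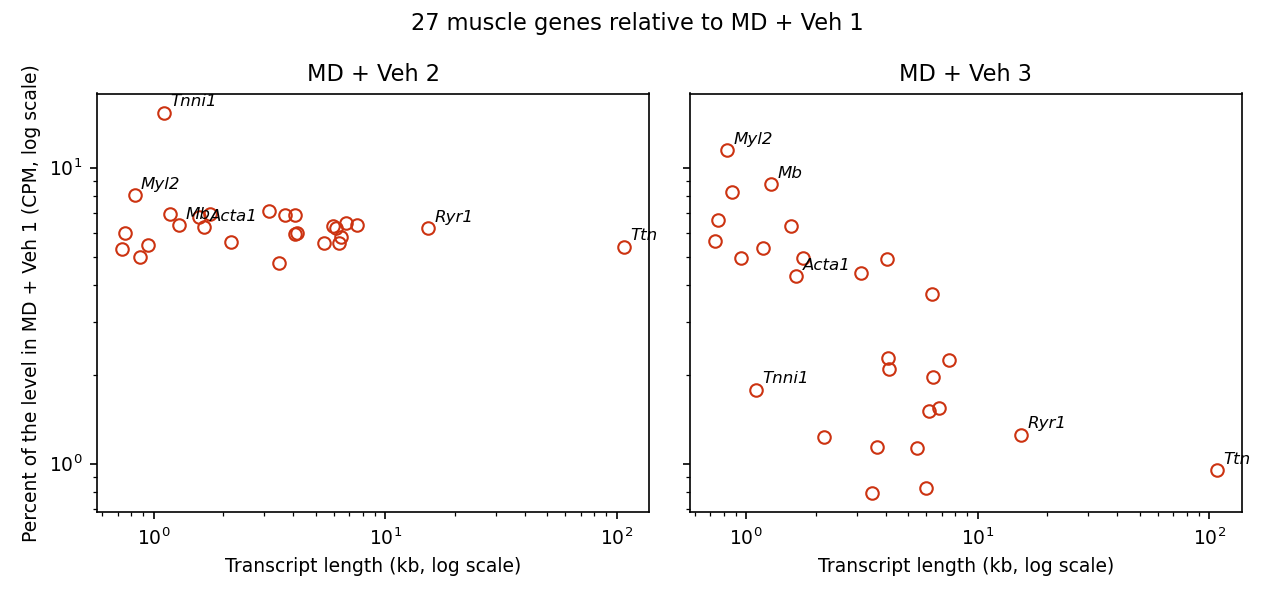
Level of each of 27 muscle genes in MD + Veh 2 (left) and MD + Veh 3 (right) as percent of its level in MD + Veh 1 (y axis, log scale) against the length of its canonical transcript in kilobases (x axis, log scale). In MD + Veh 2 the points lie around 6.25% at every length, and in MD + Veh 3 the long transcripts, such as Ttn and Ryr1, lie below most of the short ones.

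Smaller amounts were read in the libraries with the next numbers after MD + Veh 3 and CD + PE 1. MD + Veh 4 held a median of 10.8% of the level of MD + Veh 3 over 22 genes, with Acta1 at 3.95 CPM, Mb at 3.25 CPM, Myh1 and Tnnt3 at 2.94 CPM each. CD + PE 2 held 2.39% of the level of CD + PE 1 over 21 genes, with Acta1 at 2.37 CPM, Tnnt3 and Tnnc2 at 1.49 CPM each and Myh2 and Myh7 at 0. CD + PE 2 was also the second library in Myh8 and in the keratins.

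Of 48 other skeletal muscle genes, written down with the levels of these libraries known, the sum was 1371 CPM in MD + Veh 1, 202.9 in CD + PE 1, 111.3 in MD + Veh 2, 63.4 in MD + Veh 3 and 40.6 in CD + Veh 2, and 16.1 to 27.8 CPM in the 14 others. The 5 libraries kept the order they had for the 35 genes. Xirp2, an actin-binding protein of the cell junctions of muscle, was at 166.6 CPM in MD + Veh 1 and 17.9 in CD + PE 1, and Pygm, muscle glycogen phosphorylase, at 131.2 and 28.0 CPM. Csrp3, a muscle LIM protein, was an exception, at 12.2 CPM in MD + Veh 1, 9.67 to 13.3 CPM in the rest of the 5 and 6.99 to 14.2 CPM in the 14 others.

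The genes most like the 35 in pattern were found by the overlap between each gene's share of CPM per library and the mean share of the 35 genes. Of 14213 genes outside the 35 with at least 100 counts, 75 (0.528%) overlapped by 80% or more, and the median was 26.1%. Among the highest were Alpk3, a kinase of striated muscle, and Casq2, the slow and cardiac calsequestrin, at 94.8% each, Rpl3l at 94.4%, Myo18b at 94.4% and Srl, sarcalumenin, at 94.4%. The 35 genes themselves lay between 66.5% for Eno3 and 94.7% for Tnnt3. Since 75.7% of the mean share lies in MD + Veh 1, the overlap rests mostly on that library.

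Genes of other tissues were summed in the same libraries. Heart genes summed to 6.23 CPM in CD + Veh 2, 4.69 in MD + Veh 1 and 1.77 to 1.91 in the rest of the 5. In the 14 others they ran from 0.808 to 1.94 CPM. Tnnt2, a cardiac troponin, was at 4.80 CPM in CD + Veh 2, 3.68 in MD + Veh 1 and 1.58 in CD + PE 1. It was at 0.887 CPM in MD + Veh 3, 0.186 in MD + Veh 2 and at most 0.803 in the 14 others. Nppa and Nppb were at 0 counts in every library, and Myh6 was at 0.190 CPM in MD + Veh 1. Genes of satellite cells and developing muscle stayed low, apart from Myh8, with Pax7 at 1 count in MD + Veh 1 and Chrng at 0 throughout. In MD + Veh 1, Myf6 had 32 counts, Musk 18, Myod1 7 and Myf5 6, all of them at 0 in the 14 others. Smooth muscle genes were at 239.6 CPM in MD + Veh 1, 155.2 CPM of it from Des, desmin, which skeletal muscle also makes, and the rest of the 5 had 96.9 (CD + Veh 2), 85.4 (CD + PE 1), 38.4 (MD + Veh 3) and 27.9 CPM (MD + Veh 2). In the 14 others they ran from 8.83 to 120.2 CPM, the highest being MD + PE 2, where the 35 genes summed to 54.1 CPM. In CD + Veh 2, Myh11 was at 36.0 CPM. The part of the heart and smooth muscle genes in the muscle result was not tested.

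Tendon genes summed to 16.5 CPM in MD + Veh 1 against 1.17 to 3.20 CPM in the 14 others, and Schwann cell genes to 12.6 against 3.89 to 9.18 CPM, while Tnmd, a defining marker of tendon, was at 1 count. Mesothelial genes summed to 12.5 CPM in MD + Veh 1, 7.43 in MD + Veh 2 and 5.80 in CD + Veh 2, against 0.808 to 5.73 CPM in the 14 others. The 8 genes of the fat cell list summed to 135.9 CPM in MD + Veh 1, within the 107.1 to 264.5 CPM of the other MD libraries, and to 6.83 to 12.3 CPM in the CD libraries. Cfd, a secreted protease of fat cells, made up 66.9 CPM of that sum in MD + Veh 1, the lowest of the MD libraries, and Cidec and Fabp4 lay within their range. The markers Adipoq, Lep and Plin1, chosen after their values were seen, were at 4.18, 3.04 and 3.99 CPM in MD + Veh 1 and at most 0.558 CPM in any other library, and Ucp1 was at 0 in all 19. The part of these tissues in the muscle result was not tested.

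The tests of the study's design ran over 13597 genes, of which 32 are among the 35. In MD + Veh against CD + Veh, edgeR's quasi-likelihood test called 25 of the 35 genes higher, against 4.74% of all genes tested called higher. In MD + PE against MD + Veh it called 11 lower, against 0.934% of all genes. In CD + PE against CD + Veh it called 0 of the 35, against 2.92% of all genes in either direction. For the interaction of PE and diet it called 0, against 0.00735% of all genes. DESeq2 called 0 of the 35 and 523 of all genes in CD + PE against CD + Veh, and 16 of the 35 and 85 of all genes for the interaction. The 35 genes were chosen from these same libraries, so the counts carry no evidence on diet or PE. MD + Veh is the control of the second comparison and the tested group of the first, so both comparisons share its libraries.

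The median log2 fold change of the 32 genes was 5.89 in MD + Veh against CD + Veh and -8.22 in MD + PE against MD + Veh, with the median of all genes tested at -0.0042 and -0.012. From mean CPM, with the 2 genes at 0 in all of MD + PE set to 3 counts over the group, the second median was -8.41. It was 2.23 in CD + PE against CD + Veh. These medians rested on few libraries. Without MD + Veh 1 the first was 2.64 and the second -5.36, and without the 5 libraries, over 14 genes, they were 2.29 and -1.35. The third turned to -0.99 without CD + PE 1, was 4.55 without CD + Veh 2 and was 0.75 without the 5 libraries. With a covariate for library numbers up to 45 against 46 and above, the second was -1.24 and the third 9.18. Only MD + Veh has libraries on both sides, so this covariate is set by MD + Veh 1 to 3 against MD + Veh 4 and 5. Those are the raised libraries of the group against the rest. The fit therefore cannot separate the division from the muscle levels, and neither median is an adjusted effect of PE. The 21 tested among the 48 other skeletal muscle genes had 11 called higher in the first comparison and 2 called lower in the second. Without MD + Veh 1 the count of 25 fell to 1, which was Tpm2, and the count of 11 fell to 1, which was Myh2. Without the 5 libraries, 14 of the 35 genes were tested. Of these, 2 were called higher in MD + Veh against CD + Veh (Tpm2 and Tnnt3) and 0 in MD + PE against MD + Veh. MD + Veh 4 and 5 are then the only libraries of their group.

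Leaving out other libraries moved the calls too. The count of 25 was 2 without CD + Veh 1, 3 without CD + Veh 3 and 2 without CD + Veh 4. The count of 11 was 25 without MD + Veh 4, 24 without MD + Veh 5 and 18 without CD + PE 1. It was 6 without CD + Veh 2 or MD + Veh 3, 7 without CD + PE 4, 5 without CD + Veh 4, 4 without CD + PE 3, 3 without CD + Veh 1, CD + Veh 3 or MD + Veh 2, and 0 to 2 without any 1 library of MD + PE. Tpm2 was called higher in MD + Veh in all 19 fits that left out 1 library, and Myh2 in 18.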

How the data were processed

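RNA was extracted from snap-frozen liver pieces, poly(A)-selected and sequenced as 1 stranded library per mouse. The authors trimmed reads with fastp 0.23.4, quantified transcripts with Salmon 1.10.3 against GENCODE GRCm39 with sequence bias correction, and brought them to gene level through tximport. Deposited were unnormalised estimated counts, rounded to whole numbers, of 55836 genes in 19 libraries. Libraries of a group were checked for copies, and none of the 36 pairs agreed within sampling noise (mean squared deviation 11.3 to 85.5 times counting error).

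Counts were fitted in R 4.3.3 with edgeR 4.0.16 over all 19 libraries (TMM, filterByExpr by group, 1 coefficient per group, quasi-likelihood F test), which left 13597 genes. The study used DESeq2, which was run here as an alternative (version 1.42.0). The limits of the study were used for calls, namely 0.05 for the p adjusted by Benjamini and Hochberg and 0.38 for the size of the log2 fold change. SE is the log2 fold change divided by the square root of F. The fit was tested on simulated data. Fitted fold changes of genes at 0 in a group depend on the prior count. Mice are the replicates, with 1 library each. Selective alignment shares reads among similar transcripts, which bears on the myosins.

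The 35 genes, the fast and slow sets and the lists of other tissues were chosen with earlier results of these data known. Outside the 35, the naming rule took the 20 genes with the highest profile overlap. It also took up to 6 genes of each list with the highest CPM, and defining markers at 0. Rps6-ps4 was named as the measure of the division between library numbers 45 and 46. Myh8 at its full account, Actc1, Myl3, the keratins, Adipoq, Lep, Plin1, Tnnt2, Tnmd, Csrp3, Myh11 and Dmbt1 were singled out after their values were seen. Intervals are exact Clopper-Pearson intervals and cover counting error only. A count of 0 allows up to 3 counts. Shared words of 31 bases were counted over all GENCODE vM39 transcripts. Gene symbols of the file matched that annotation for 54658 of 55836 genes. The alternatives were RLE size factors, DESeq2, other filters, the replicate block, a covariate for library numbers up to 45 against 46 and above, and libraries left out. A few genes that the naming rule picked are not reported here. Other data of the study were not analysed here.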

Additional observations from a re-analysis of the deposited data

Results flagged for a closer look

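Within each group of 4 or 5 libraries, the highest or lowest library was set against the rest by Dixon's test, over 24 combinations of measure and group. For measures chosen without sight of the values, chance flags about 1 in 20. The summed CPM of the 35 genes was flagged at 114 CPM in CD + Veh 2, at 858 CPM in CD + PE 1 and at 7020 CPM in MD + Veh 1. The 48 other skeletal muscle genes were flagged at 202.9 CPM in CD + PE 1 and 1371 CPM in MD + Veh 1. The fast genes were flagged in CD + Veh 2 (25.6 CPM), CD + PE 1 (222 CPM) and MD + Veh 1 (1859 CPM), and the slow genes in MD + Veh 1 (205.3 CPM), where the next library, MD + Veh 2, stood at 13.5 CPM. MD + Veh 2 and MD + Veh 3 were not flagged, since a single higher library sets the range of their group.

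Myh8, the perinatal myosin, was flagged at 190.6 CPM in CD + PE 1, and the sum of Krt4, Krt5, Krt13 and Krt15 at 54.8 CPM in the same library. The remaining flags rest on 1 count each in a group otherwise at 0, namely Myh8 in MD + Veh 1 (0.0634 CPM) and MD + PE 2 (0.0842 CPM) and the keratins in CD + Veh 4 (0.0674 CPM). The 35 genes, Myh8 and the keratins were all chosen with their levels in these libraries known, so the flags are a description and the chance rate does not apply to them.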

How the results depend on the processing

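With total counts in place of TMM factors, the sum of the 35 genes was 7487 CPM in MD + Veh 1, 816.7 in CD + PE 1 and 495.9 in MD + Veh 2. With troponins alone, the slow share was 6.21% in MD + Veh 1 and 7.24% in MD + Veh 2, and per kilobase of the longest transcript it was 8.02% in MD + Veh 1.

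Calls among the 35 genes depended on the fit, and so did the number tested. Of the 35, 32 were tested in the main fit, 6 with the stricter filter and 14 without the 5 raised libraries. For MD + PE against MD + Veh, 11 genes were called lower, against 24 with DESeq2, 20 without a filter, and 0 with the stricter filter, with a covariate that divides library numbers 45 and 46, and without the 5 raised libraries. With each library left out in turn the count ran from 0 to 25. For MD + Veh against CD + Veh, 25 became 19 with DESeq2, 24 without a filter, 4 with the stricter filter and 2 without the 5 raised libraries. The count was 32 with the division as a covariate and 1 to 31 with 1 library left out. For CD + PE against CD + Veh, 0 became 1 (Tpm2) without the 5 raised libraries and stayed 0 with any library left out. For the interaction, 0 became 16 with DESeq2 and 16 with the division as a covariate, and was 0 with any library left out. The cause of these changes was not tested, apart from the genes and libraries each fit drops. The division covariate rests on MD + Veh alone, the only group with libraries on both sides. It thus carries the difference between the raised and the other libraries of that group.

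With the replicate number as a block, the interaction had 10 of the 35 genes and 41 of all genes called, and MD + PE against MD + Veh had 24 of the 35. The labels share numbers across groups, but residuals of 27 pairs of libraries with 1 number correlated with a median of 0.0293 (-0.245 to 0.410, 6 above 0.1), and the replicates were treated as unpaired.

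Over all genes, 397 were called in CD + PE against CD + Veh, 183 without the 5 raised libraries, 37 with the division as a covariate and 215 to 426 with 1 library left out. In MD + PE against MD + Veh 147 were called, 296 with DESeq2, 13 without the 5 raised libraries, 33 with the division, and 56 to 243 with 1 left out. In MD + Veh against CD + Veh 1410 were called, 644 without the 5 raised libraries and 1019 to 1652 with 1 left out. For the interaction 1 gene was called, 85 with DESeq2, 54 with the division, 0 without the 5 raised libraries and 0 to 3 with 1 left out. Depth limits genes near 0, where 1 count decides whether a library is at 0.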

Other observations

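Genes outside muscle also stood high in single libraries of the 5, and are given as values. In CD + Veh 2, Dmbt1, a secreted glycoprotein of epithelia, held 1686 counts, 61.5% of its CPM over the 19 libraries, and the next library was CD + PE 4 with 354 counts. The haemoglobin genes Hba-a1 and Hbb-bs, each with a near-identical copy that can share its reads, were at 250.1 and 223 CPM in MD + Veh 2 and at 168.7 and 143.4 CPM in MD + Veh 1, and CD + PE 2, which held little muscle RNA, had 169.4 and 118.7 CPM. Intestinal genes (Alpi, Krt20 and Vil1) stood at 73.1, 33.4 and 22.7 CPM in MD + PE 2, which is none of the 5, and were at most 0.645 CPM in the 5. Exocrine pancreas genes summed to at most 3.77 CPM in any library.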
